A study of Mus musculus with 12 samples.

Results

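Sirtuins and the genes of NAD salvage were followed across 4 groups of mouse quadriceps muscle. The 10 genes were Sirt1, Sirt2, Sirt3, Sirt5, Sirt6, Sirt7, Nampt, Nmnat1, Nmnat2 and Nadk, and they were taken by name: every probe set whose array annotation gave exactly 1 of these symbols was kept. This found 16 of the 45037 probe sets that were not controls, and all 10 genes were present. The mitochondrial sirtuin gene Sirt4 was not on the list of names. C57Bl/6J mice were given vehicle, AICAR (a daily 250 mg/kg), GW1516 (a daily 5 mg/kg) or the 2 drugs together at these doses. Treatment lasted 6 days in every group, and age and sex were not in the labels used. Each of the 12 arrays held quadriceps RNA pooled from 3 mice of a group, with 3 arrays a group. The labels do not say whether pools of a group were made of separate mice, so the p-values reflect how far these pools spread. AICAR enters cells and becomes an AMP mimic that switches on AMP-activated protein kinase. GW1516 is a drug-like ligand that turns on PPARδ, a nuclear receptor of fat oxidation genes.

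Sirtuins are enzymes that remove acetyl and related acyl groups from proteins and consume NAD in doing so, which ties them to the energy state of the cell. Nicotinamide, the product of that reaction, is turned back into NAD by the salvage route, in which Nampt makes nicotinamide mononucleotide and the Nmnat enzymes join it to an adenylyl group. In skeletal muscle AMP-activated protein kinase signalling is known to raise NAD and with it the activity of Sirt1, which deacetylates the coactivator PGC-1α and FOXO transcription factors. Transcript level and enzyme activity are separate quantities, and only the first was measured here.

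Skeletal muscle fibre markers were bright on every array, with 12 of 12 measured and a summed signal from 237196 to 306035. The trimmed mean signal was the same on each array, the median signal ranged from 45.4 to 54.2, and arrays correlated at 0.947 to 0.968 over the 12771 genes tested. The second GW1516 array was the outermost on principal component 1 (13.4% of the variance), with a score of 45.9 where the other 11 arrays lay between -18.7 and 6.77. Fibroblast markers summed to 14405 on that array and to at least 26129 on every other. The GW1516 difference of each of the 10 genes is therefore also given without it.

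None of the 10 genes passed the test between the 4 groups, or in any of the 6 contrasts, after adjustment over all genes. By limma's moderated F test 0 of 10 passed an adjusted p of 0.05, beside 14 of 12771 genes (0.11%), and 2 of 10, Nmnat2 and Nadk, had an unadjusted p under 0.05, beside 10.4% of all genes. Nmnat2 had the smallest F test p of the 10, at 0.00146 (limma, adjusted p = 0.199), with its lowest signals in muscle given GW1516 alone. Nadk followed at 0.0311 (adjusted p = 0.436), with its highest signals under AICAR alone. For the sirtuins and Nampt, each read by its brightest probe set, the group differences from vehicle were between -0.31 and 0.24 on the log2 scale. Other probe sets past the filter went further, to -0.50 for Sirt5 under AICAR and to 0.39 for Nampt under GW1516. Over the 30 differences of a gene from vehicle, the 95% interval stayed within 1 log2 unit of 0 in 28 and within 0.5 in 14.

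**Figure D1:**
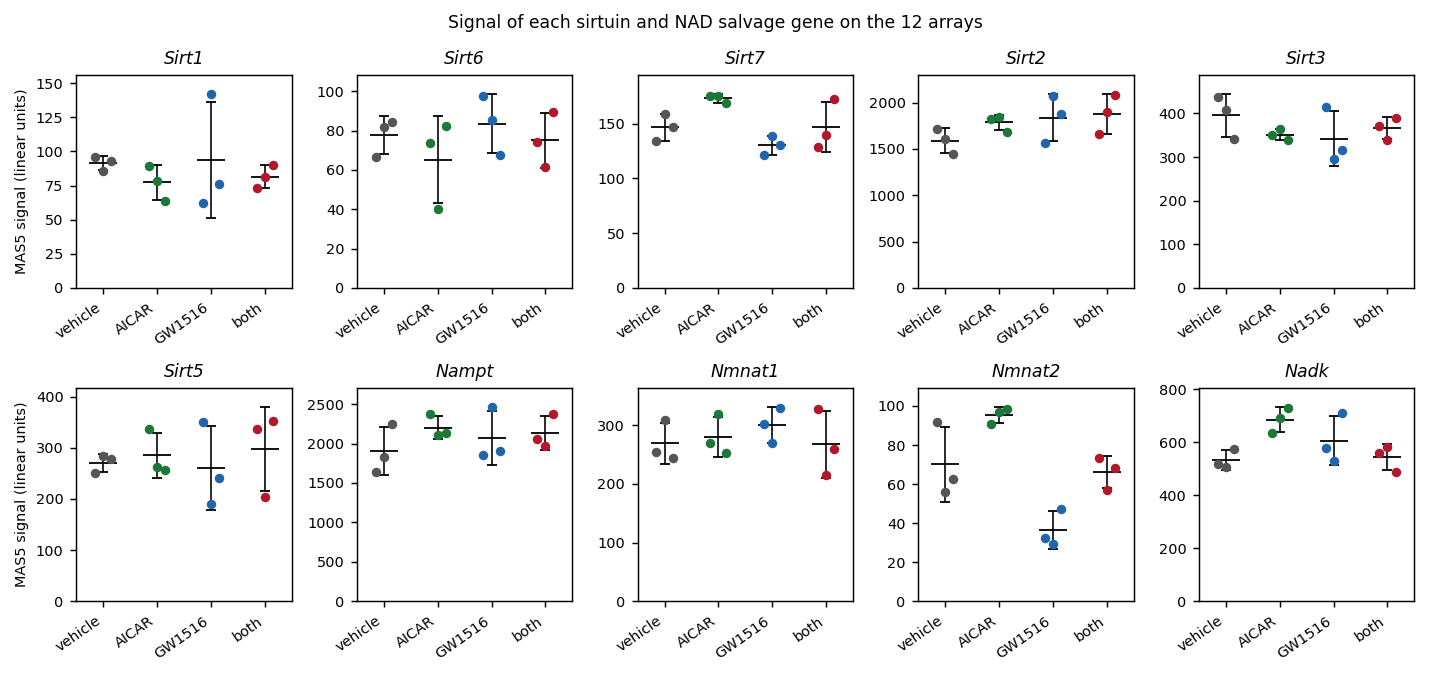
MAS5 signal of each of the 10 genes (vertical axes, linear units from 0) in vehicle, AICAR, GW1516 and the combination (horizontal axes, the combination written as both). Points are the 3 arrays of a group, long bars are group means and error bars are SD. Nmnat2 on the 3 GW1516 arrays, from 29.3 to 47.4, lies below all 9 other arrays, and Nadk on the AICAR arrays lies above all vehicle and combination arrays.

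Sirt1, the nuclear deacetylase of PGC-1α, FOXO proteins and histones, had signals of 95.9, 85.8 and 92.7 in vehicle, 89.3, 78.5 and 64.0 with AICAR, 62.5, 142 and 76.1 with GW1516, and 72.8, 81.4 and 89.8 with both. The second GW1516 array held the highest Sirt1 signal of all 12 and the first held the lowest, and every treated group overlapped the vehicle arrays. The differences from vehicle were -0.26 ± 0.28 (SE, log2) for AICAR, -0.06 ± 0.28 for GW1516 and -0.17 ± 0.28 for the combination, with limma's adjusted p = 0.89, 0.966 and 0.858. Without the second GW1516 array the GW1516 difference was -0.41 (adjusted p = 0.8), and without the first it was 0.19. In order of mean signal, which the second array raised for GW1516, the groups ran from AICAR through combination and vehicle to GW1516, and no neighbours in that order were separated.

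The RefSeq sequence before the Sirt1 start is shown because it holds the E-box CACGTG, the element bound by clock proteins, at a pair of places, and clock genes are among those listed with the pathway. The stretch covers chr10:63339036-63339285 of GRCm38.p6 on the minus strand, 250 bases that end just before the annotated start, with the E-boxes in capitals, 115 and 43 bases before the start.

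Sirt1: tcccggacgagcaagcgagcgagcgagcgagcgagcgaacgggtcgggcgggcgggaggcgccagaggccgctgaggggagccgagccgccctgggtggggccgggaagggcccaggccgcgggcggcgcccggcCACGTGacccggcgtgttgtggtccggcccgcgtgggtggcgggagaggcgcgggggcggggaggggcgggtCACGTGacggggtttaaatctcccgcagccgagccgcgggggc

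Sirt6, a chromatin-bound deacetylase of genome maintenance, had signals of 66.7, 81.8 and 84.6 in vehicle, 73.5, 40.2 and 82.3 with AICAR, 97.6, 85.6 and 67.6 with GW1516, and 74.4, 61.5 and 89.3 with both. The second AICAR array was the lowest of the 12, and without it the AICAR difference of -0.31 ± 0.29 became 0.01. The GW1516 and combination differences were 0.10 ± 0.29 and -0.06 ± 0.29 (limma, adjusted p = 0.862, 0.944 and 0.961 for AICAR, GW1516 and the combination). Without the second GW1516 array the GW1516 difference was 0.07. All 4 groups overlapped their neighbours.

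Sirt7, a nucleolar sirtuin linked to ribosomal RNA transcription, was tight under AICAR, at 176, 175 and 169, against 134, 159 and 147 in vehicle, 121, 139 and 130 with GW1516, and 129, 140 and 173 with both. The AICAR arrays lay above all vehicle and all GW1516 arrays, and 1 combination array reached into the AICAR range. The difference from vehicle was 0.24 ± 0.15 for AICAR (1.18-fold, limma, adjusted p = 0.777), -0.17 ± 0.15 for GW1516 (adjusted p = 0.749) and -0.01 ± 0.15 for the combination (adjusted p = 0.995). Averaged over both backgrounds, AICAR stood at 0.20 ± 0.11 (adjusted p = 0.534) and GW1516 at -0.21 ± 0.11 (adjusted p = 0.548). Without the second GW1516 array the GW1516 difference from vehicle was -0.22, and the averaged effects were 0.23 and -0.23.

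Sirt2, the mainly cytosolic sirtuin that deacetylates tubulin, had signals of 1716, 1607 and 1447 in vehicle, 1828, 1842 and 1687 with AICAR, 1565, 2071 and 1879 with GW1516, and 1658, 1896 and 2082 with both. Its mean was lowest in vehicle and highest with both drugs, but each treated group had an array within the vehicle range. The differences from vehicle were 0.17 ± 0.11, 0.20 ± 0.11 and 0.24 ± 0.11 for AICAR, GW1516 and the combination (limma, adjusted p = 0.788, 0.579 and 0.465). These 3 comparisons share the vehicle arrays and are not separate evidence. Without the second GW1516 array the GW1516 difference was 0.11.

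Sirt3, the chief deacetylase of the mitochondrial matrix, had signals of 438, 408 and 341 in vehicle, 350, 365 and 340 with AICAR, 414, 296 and 317 with GW1516, and 371, 339 and 390 with both. Vehicle had the highest mean, and the third vehicle array lay within the range of every treated group. The differences were -0.16 ± 0.14, -0.22 ± 0.14 and -0.10 ± 0.14 in the same order (limma, adjusted p = 0.84, 0.624 and 0.82), and the GW1516 value was -0.12 without the second GW1516 array.

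Sirt5, a mitochondrial enzyme that removes succinyl and malonyl groups, was read by 3 probe sets that did not give 1 answer. The brightest had signals of 250, 284 and 278 in vehicle, 336, 263 and 257 with AICAR, 351, 190 and 241 with GW1516, and 337, 204 and 352 with both, and its differences from vehicle were 0.07 ± 0.23, -0.10 ± 0.23 and 0.10 ± 0.23 (limma, adjusted p = 0.971, 0.925 and 0.911). Without the second GW1516 array the GW1516 difference turned to 0.11. The next, 1428916_s_at, had 283, 303 and 227 in vehicle against 216, 183 and 174 with AICAR, where all 3 arrays were below the vehicle range. Its AICAR difference was -0.50 ± 0.18, with an unadjusted p = 0.017 (limma, adjusted p = 0.608 in the fit of all probe sets). The third, with signals of at most 8.38, was below the brightness filter of 28.2 and is not read here.

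Among the salvage enzymes, Nampt, whose enzyme sets the pace of NAD salvage, had signals of 1637, 1832 and 2243 in vehicle, 2370, 2103 and 2131 with AICAR, 1848, 2460 and 1899 with GW1516, and 2054, 1972 and 2375 with both. The third vehicle array was as bright as the treated groups, and on this brightest probe set no treated group was clear of vehicle. The differences were 0.22 ± 0.13 for AICAR, 0.12 ± 0.13 for GW1516 and 0.17 ± 0.13 for the combination (limma, adjusted p = 0.759, 0.8 and 0.664). With the third vehicle array left out the AICAR difference was 0.34, and with the second GW1516 array left out the GW1516 difference was -0.01.

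All 3 Nampt probe sets passed the filter, and each stood above vehicle in each treated group. The most dissimilar was 1448607_at, with signals of 401, 435 and 414 in vehicle. It had 587, 505 and 440 with AICAR, 472, 730 and 475 with GW1516, and 506, 570 and 470 with both. On this probe set every treated array lay above every vehicle array, but narrowly. The lowest treated signal was 440 and the highest vehicle signal 435. The second GW1516 array was the brightest, and the GW1516 difference of this probe set is not given without that array. For 1448607_at the differences were 0.28 ± 0.16, 0.39 ± 0.16 and 0.30 ± 0.16 (limma, unadjusted p = 0.0976, 0.0276 and 0.0798, adjusted p = 0.737, 0.51 and 0.51 in the fit of all probe sets). Those of 1455320_at were 0.16 ± 0.11, 0.12 ± 0.11 and 0.16 ± 0.11. The probe sets share the same RNA and array, and are not separate samples. Nampt is also made by fat cells, and all 10 measured adipocyte markers stood above vehicle in every treated group. Their median difference was 0.97 with AICAR, 0.70 with GW1516 and 0.73 with both, and 0 of 10 were called. Their summed signals varied between pools of a group, from 5418 to 11744 in vehicle, 6977 to 21003 with AICAR, 7279 to 14785 with GW1516 and 6951 to 16388 with both. All 10 passed the filter, and their part in the Nampt values was not tested.

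The sequence before the Nampt start is shown beside that of Sirt1 because Nampt is known as an output of the clock, although no CACGTG lies in this window. It covers chr12:32820085-32820334 of GRCm38.p6 on the plus strand, the 250 bases before the start. The capitals mark the GC box GGGCGG, on either strand, at 5 places from 244 to 10 bases before the start.

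Nampt: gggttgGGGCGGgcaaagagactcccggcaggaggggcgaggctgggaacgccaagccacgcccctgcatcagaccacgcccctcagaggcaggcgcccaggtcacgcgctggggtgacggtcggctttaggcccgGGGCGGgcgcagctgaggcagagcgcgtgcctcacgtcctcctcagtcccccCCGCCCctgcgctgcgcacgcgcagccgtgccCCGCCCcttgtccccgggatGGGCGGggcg

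Over the RefSeq windows of this length, 14 belong to the 10 genes, and the motifs were searched on both strands, with overlapping copies counted apart. The E-box lay in the windows of Sirt1 and of the downstream Nadk start (40 bases before it), so in 2 of 14 windows, beside 6.02% of 32851 windows in all. The GC box lay in 10 of 14 windows, from 9 of the 10 genes, beside 32.7%. The Nmnat1 windows overlap and hold the same GC box, 148 bases before 1 start and 110 before the other, so it counts in both. The NRF1 site was found before 1 start of Sirt6, beside 0.782%. No window of the 10 genes held the direct-repeat PPAR element (0.0335% of all windows), the FOXO motif GTAAACA (3.17%) or the cyclic AMP element TGACGTCA (1.55%). A match describes these letters only, and distal elements were outside the windows.

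Nmnat1, the nuclear adenylyltransferase that completes NAD synthesis, had signals of 254, 309 and 244 in vehicle, 270, 318 and 253 with AICAR, 301, 269 and 330 with GW1516, and 327, 215 and 259 with both. All 4 groups overlapped. The differences were 0.06 ± 0.16, 0.16 ± 0.16 and -0.02 ± 0.16 (limma, adjusted p = 0.963, 0.784 and 0.971), and the GW1516 value was 0.24 without the second GW1516 array. For the second probe set, 1429819_at, they were -0.18 ± 0.19, -0.01 ± 0.19 and -0.16 ± 0.19.

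Nmnat2 encodes the adenylyltransferase of the Golgi and cytosol, best known for keeping axons alive, and its group differences were the largest of the 10 genes. Signals were 91.8, 55.7 and 62.9 in vehicle, 90.8, 96.8 and 98.4 with AICAR, 32.1, 29.3 and 47.4 with GW1516, and 73.2, 57.1 and 68.2 with both. The GW1516 arrays were below every other array, the AICAR arrays were above all combination arrays, and the first vehicle array alone fell within the AICAR range. The group means were 70.1 ± 19.1 (SD, n = 3) in vehicle, 95.3 ± 4.03 with AICAR, 36.3 ± 9.72 with GW1516 and 66.2 ± 8.26 with both. In that order of means, GW1516 and combination did not overlap, while combination overlapped vehicle and vehicle overlapped AICAR.

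GW1516 alone differed from vehicle by -0.95 ± 0.28 (1.93-fold lower), with a 95% interval from -1.55 to -0.35 and an unadjusted p = 0.00448, but not past the adjustment (limma, adjusted p = 0.361). AICAR alone differed by 0.48 ± 0.28 (adjusted p = 0.759) and the combination by -0.06 ± 0.28 (adjusted p = 0.96). Set against each other, muscle given both drugs was 0.89 above muscle given GW1516 alone and 0.53 below muscle given AICAR alone, as differences of mean log2 signal. Averaged over both backgrounds, 6 arrays against 6, AICAR stood at 0.68 ± 0.20 (unadjusted p = 0.00397, limma, adjusted p = 0.258) and GW1516 at -0.74 ± 0.20 (unadjusted p = 0.00224, adjusted p = 0.296). The interaction was 0.42 ± 0.40 (adjusted p = 0.834).

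The GW1516 difference of Nmnat2 stayed between -1.16 and -0.74 with any 1 array left out, and was -0.81 without the second GW1516 array (limma, adjusted p = 0.66). The averaged AICAR and GW1516 effects were then 0.62 and -0.67, and the interaction 0.28. Nmnat2 was read by 1 probe set, and on the GW1516 arrays it was near the brightness filter of 28.2. With a pseudocount of 32 the GW1516 difference was -0.57, and the averaged AICAR and GW1516 effects were 0.43 and -0.48. In pooled muscle, fewer cells of a type and less RNA per cell cannot be told apart. Nerve and Schwann cell markers, of which 10 of 13 were measured and 6 passed the filter, summed to 1027 to 1328 in vehicle, 1230 to 1386 with AICAR, 928 to 1331 with GW1516 and 1287 to 1551 with both. On the GW1516 arrays the sum was 1331, 928 and 1164, where Nmnat2 was at 32.1, 29.3 and 47.4, so the second array held the lowest value of all 12 in both. Of the 6 nerve markers tested, 4 stood above vehicle with AICAR, 2 with GW1516 and 4 with both, and their part in the Nmnat2 values was not tested.

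Nadk, the cytosolic kinase that turns NAD into NADP, had signals of 518, 507 and 575 in vehicle, 635, 690 and 729 with AICAR, 578, 530 and 710 with GW1516, and 560, 582 and 488 with both. The AICAR arrays lay above all vehicle and all combination arrays, and the third GW1516 array fell within the AICAR range. AICAR differed from vehicle by 0.36 ± 0.12 (1.28-fold), with a 95% interval from 0.11 to 0.61 and an unadjusted p = 0.00865 (limma, adjusted p = 0.589). GW1516 differed by 0.18 ± 0.12 (adjusted p = 0.648) and the combination by 0.03 ± 0.12 (adjusted p = 0.957). The GW1516 difference ranged from 0.06 to 0.27 with 1 array left out. The highest value was that without the second GW1516 array, with limma's unadjusted p = 0.0387 and adjusted p = 0.701.

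The interaction of the 2 drugs on Nadk was -0.51 ± 0.17, with an unadjusted p = 0.00845 (limma, adjusted p = 0.723), since AICAR gave 0.36 without GW1516 and -0.15 on top of it. It ranged from -0.60, without the second GW1516 array, to -0.39 with 1 array left out. The second Nadk probe set, 1416249_at, gave an interaction of -0.55 ± 0.28 (unadjusted p = 0.0676, limma, adjusted p = 0.775), but its AICAR difference was 0.04 ± 0.20, with AICAR signals of 233, 206 and 239 inside the vehicle range of 245, 204 and 213. The AICAR difference was thus seen in 1 of 2 probe sets.

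**Figure D2:**
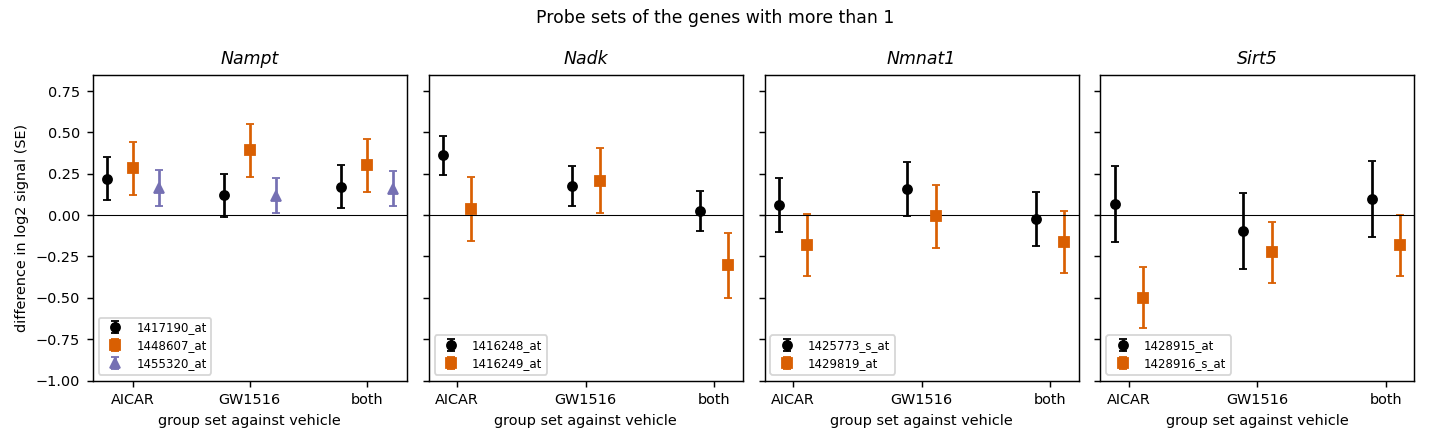
Difference in log2 signal from vehicle (vertical axes) for the 4 genes with more than 1 probe set past the filter, in AICAR, GW1516 and both. Symbols are probe sets, the black circle being the brightest, which stands for the gene, and error bars are SE. The 3 probe sets of Nampt lie above 0 throughout, while those of Sirt5 and Nadk part under AICAR, at 0.07 against -0.50 and at 0.36 against 0.04.

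Counted over the 10 genes, AICAR against vehicle gave 0 calls, beside 0.00783% of all genes, and 1 gene, Nadk, at an unadjusted p under 0.05 by limma, beside 6.93%. GW1516 against vehicle gave 0 calls (0.094% of all genes) and 1 gene, Nmnat2, at an unadjusted p under 0.05 (9.64%). The combination gave 0 calls by limma (0.258%) and 0 at an unadjusted p under 0.05 (10.9%). Sirt2 came nearest there, with limma's unadjusted p = 0.0516. The averaged AICAR effect gave 0 calls (0.0313%) and 1 gene, Nmnat2, unadjusted (10.4%), and the averaged GW1516 effect 0 calls (0.149%) and again Nmnat2 (9.51%). The interaction gave 0 calls, as over all 12771 genes (0%), and 1 gene, Nadk, unadjusted (6.64%). These shares among 10 genes are near those of all genes.

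Groups that did not overlap were counted as well, with each gene read by its brightest probe set. The shares that follow are of all genes, in either direction. From vehicle, the AICAR arrays were clear for 2 of 10 genes, Nadk and Sirt7, both higher (18.3%), the GW1516 arrays for 1, Nmnat2, lower (14.2%), and the combination arrays for 0 (18.6%). Some other probe sets were also clear of vehicle but are outside this count. Nampt was higher by 1448607_at in each treated group and by 1455320_at with AICAR. Sirt5 was lower by 1428916_s_at with AICAR, and Nadk lower by 1416249_at in the combination. From AICAR, the GW1516 arrays were clear for Sirt7 and Nmnat2, both lower (14.6%), and the combination arrays for Nadk and Nmnat2, both lower (14.5%). The combination arrays were clear of the GW1516 arrays for Nmnat2, higher (12.8%). With 6 arrays against 6, 0 of 10 genes were clear for AICAR (0.76%) and 0 for GW1516 (0.76%). The median difference of the 10 genes was 0.12 for AICAR, 0.02 for GW1516 and -0.01 for the combination, beside 0.01, -0.01 and 0.00 over all genes. The median size regardless of sign was 0.23, 0.17 and 0.08, beside 0.14, 0.16 and 0.17.

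**Figure D3:**
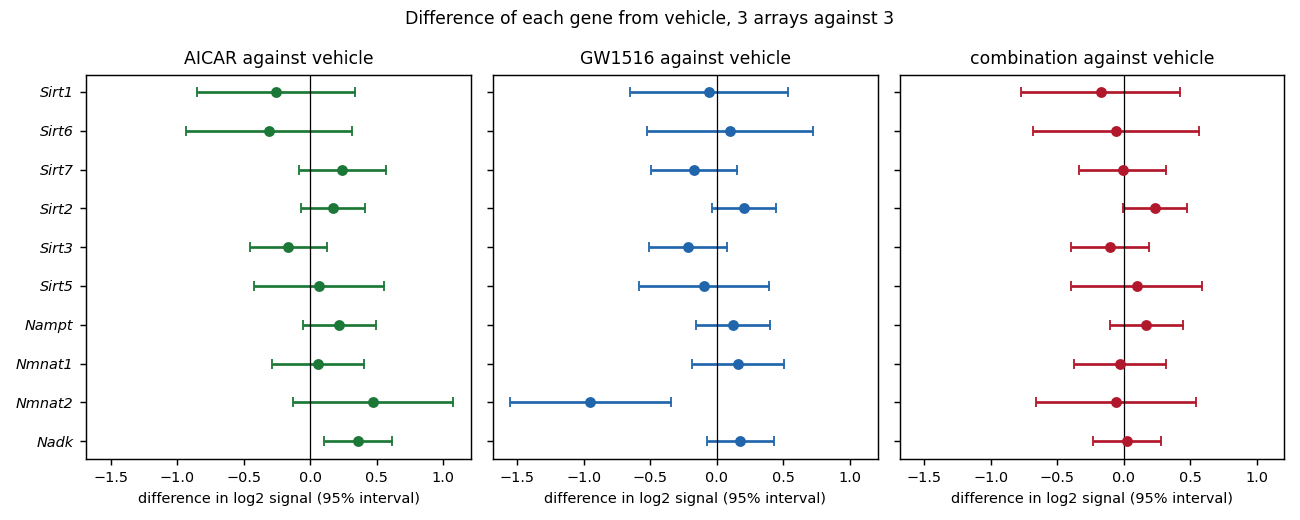
Difference in log2 signal from vehicle (horizontal axes) with its 95% interval, for the 10 genes in rows, under AICAR, GW1516 and the combination, 3 arrays against 3. Intervals are from limma before any adjustment for the number of genes. Those of Nadk under AICAR (0.11 to 0.61) and Nmnat2 under GW1516 (-1.55 to -0.35) leave out 0, and neither gene passed the adjusted threshold.

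The wider NAD pathway gave no call either. Of 13 tested genes of other routes to NAD, 0 were called in any contrast; the smallest F test p values there belonged to Afmid, which acts in tryptophan breakdown towards NAD, at 0.94 for AICAR (limma, adjusted p = 0.474), and Pnp, which releases nicotinamide from its riboside, at 0.47 (adjusted p = 0.477). Of 22 NAD and nicotinamide consumers, such as the PARP enzymes, 0 were called, with Art1 at -0.18 and Aox1 at 0.24 for the combination heading the list. Of 11 makers of NADPH 0 were called, with Me1, malic enzyme, at 0.30 (adjusted p = 0.191) and Nnt at 0.08 for the combination. Nnt stood at -0.33 with GW1516 alone (adjusted p = 0.553). Of 12 NADH shuttle and lactate dehydrogenase genes 0 were called, with Mdh1 at 0.33 and Got2 at -0.03. Got2 stood at -0.21 with GW1516 alone (adjusted p = 0.436). Of 11 zinc-dependent histone deacetylases, the other family of lysine deacetylases, 0 were called, with Hdac11 at 1.12 (adjusted p = 0.14) and Hdac5 at 0.24. All 7 subunits of AMP-activated protein kinase were tested and 0 were called, with Prkaa2 at 0.20 and Prkag1 at 0.44. All of these values are log2 differences, and those after the first list are for the combination unless GW1516 alone is named.

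Calls came from the protein partners and targets of sirtuins and from the clock. Of 21 partners and targets tested, 2 rose with both drugs: Foxo1, a transcription factor that Sirt1 deacetylates, by 1.59 ± 0.20 (limma, adjusted p = 0.00405), and Acadl, a mitochondrial enzyme of fatty acid oxidation that Sirt3 deacetylates, by 0.99 ± 0.11 (adjusted p = 0.00127). Foxo1 stood at 1.35 with AICAR alone (adjusted p = 0.0561) and at 0.85 with GW1516 alone (adjusted p = 0.252), neither called. It was called for the averaged AICAR effect, at 1.04 (adjusted p = 0.0138), and Acadl for the averaged GW1516 effect, at 0.83 (adjusted p = 0.000243). Both passed the F test (adjusted p = 0.0152 and 0.0025). With the variance trend left out of the fit, 0 genes passed the F test and 0 were called for the averaged AICAR effect. Acadl also rose with GW1516 alone, by 0.92 ± 0.11 (adjusted p = 0.00583). That call was lost without vehicle replicate 2 or 3 (adjusted p up to 0.0611) and kept with each other array left out. Both combination calls held with each of the 12 arrays left out in turn, and both were lost when the variance trend was left out of the fit (adjusted p = 0.0744 for Foxo1 and 0.052 for Acadl). The GW1516 difference of Acadl was 0.81 without the second GW1516 array (adjusted p = 0.00738). Sirt1 and Sirt3 stood at -0.17 and -0.10 in the combination. Of 17 clock genes 2 fell with both drugs, the E-box repressor Bhlhe40 by 0.81 ± 0.15 (adjusted p = 0.0451) and Nr1d1 by 0.94 ± 0.16 (adjusted p = 0.0346), where Nampt stood at 0.17. The Bhlhe40 call was lost with any AICAR, vehicle or combination array left out, in 9 of 12 cases (adjusted p up to 0.177). That of Nr1d1 was lost in 7 of 12, with AICAR replicate 2 or any vehicle or combination array left out (up to 0.143). Over the 8 lists together, 4 of 113 genes were called for the combination, 2 in each direction, beside 33 of 12771 genes (0.258%). The lists were chosen with earlier results of these data known, so these shares cannot show that the pathway is richer in calls.

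Genes whose signals followed those of Nampt, Sirt1 and Nmnat2 most closely over the 12 arrays are given as a description, by Pearson's correlation of log2 signal, and these arrays share groups and the array that stood apart. For Sirt1 they were Kpna4, Kctd9, Setd1a, Zfp771 and Eif3a, from 0.90 to 0.86. For Nampt they were Rtf2, Ap1g1, Hipk1, Gab1 and Fez1, from 0.93 to 0.84. For Nmnat2 they were Slc35e3, Bbs9, Ulk2, Morn2 and Chrnb2, from 0.94 to 0.87. No other of the 10 genes was among them.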

How the data were processed

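Quadriceps RNA of mice was profiled on 12 one-colour Affymetrix arrays. The deposited intensity values are MAS5 signals on a linear scale, per the submitters' processing notes, and all arrays share 1 trimmed mean. Neither the MAS5 version nor the scaling steps are given in the sources used here. The array annotation that named probe sets dates from 2016. Of 45101, 64 controls were left out, and 34945 carried 1 symbol, 932 several and 9160 none.

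Signals below 1 were set to 1 and log2 was taken. Probe sets in the lowest 40% by mean, below a signal of 28.2, were left out, and the brightest probe set stood for a gene, giving 12771 genes. All 10 genes of interest passed, with 15 of their 16 probe sets. Limma 3.58.1 in R 4.3.3 fitted a mean per group over all 12 arrays with a variance trend (8 residual and 5.91 prior degrees of freedom). The 7 tests were an F test over the groups, each treatment against vehicle, the averaged effect of each drug and their interaction, all two-sided, with Benjamini-Hochberg adjustment over all genes and calls below 0.05. Differences of single probe sets come from a fit of all probe sets past the filter. The fit was tested on simulated data (12771 genes, of which 200 changed, in 20 simulations of the combination against vehicle). It found 21.1% of the genes set to a log2 change of 0.5, 58.0% of those set to 1, 76.7% of those set to 1.5 and 83.5% of those set to 2, with 4.78% false calls. The simulated noise was normal and independent between genes, with no array set apart. The real comparison called 33 genes, fewer than the 200 changed here, so these shares need not hold for the real arrays.

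The 10 genes were fixed by name and described with every probe set. Of each pathway list, genes called in any test were named, or otherwise the 2 of smallest F test p. Like genes were the 5 of highest correlation. The 10 genes and the lists were chosen with earlier results of these data known. Promoter sequences are RefSeq's, GRCm38.p6, and all 10 genes were matched by symbol. Alternatives are listed with their effects in the closing section. Figures were drawn with matplotlib 3.10.9.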

Additional observations from a re-analysis of the deposited data

How the results depend on the processing

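No alternative called any of the 10 genes: the count stayed at 0 in all 7 tests under quantile normalization, no filter, a pseudocount of 32, every probe set, a filter of 60%, no trend, the replicate block and each array left out, and in the 3 comparisons with vehicle when only the groups compared were fitted. The lowest adjusted p of the 36 differences followed was 0.155 (limma). A filter of 60% left out Nmnat2, so 9 genes were tested there. Of the 36 differences, 13 changed sign with some array left out, as follows. For AICAR they ranged from -0.0351 to 0.16 in Nmnat1, -0.0566 to 0.14 in Sirt5 and -0.51 to 0.0098 in Sirt6. For GW1516 they ranged from -0.0108 to 0.24 in Nampt, -0.41 to 0.19 in Sirt1, -0.34 to 0.11 in Sirt5 and -0.0224 to 0.24 in Sirt6. For the combination they ranged from -0.0266 to 0.10 in Nadk, -0.18 to 0.12 in Nmnat1, -0.21 to 0.15 in Nmnat2, -0.0439 to 0.35 in Sirt5, -0.19 to 0.077 in Sirt6 and -0.13 to 0.0842 in Sirt7. With quantile normalization the combination values of Nmnat1 and Sirt7 turned to 0.0108 and 0.0181.

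The counts over all genes moved more, and the cause was not tested. Under the setting of every probe set the counts are of probe sets, with 27022 tested, and not of genes. For AICAR, 1 gene became 3 with every probe set, 4 with a filter of 60%, a pseudocount of 32, quantile normalization or the replicate block, 28 with only the groups compared and 0 with no trend. For GW1516, 12 became 0 with no trend and 2 with only the groups compared. For the combination, 33 became 79 with every probe set, 18 with no filter, 2 with no trend and 16 with the replicate block. The F test's 14 became 25 with every probe set and 0 with no trend. The averaged AICAR effect's 4 became 52 with every probe set, 15 with no filter or a filter of 60%, 18 with a pseudocount of 32 and 0 with no trend, and the averaged GW1516 effect's 19 became 7 with no trend. With 1 array left out the counts ranged from 0 (vehicle replicate 2, AICAR replicates 2 and 3) to 8 (GW1516 replicate 2) for AICAR, 0 (vehicle replicates 2 and 3) to 41 (GW1516 replicate 1) for GW1516, 10 (vehicle replicates 1 and 2) to 95 (GW1516 replicate 2) for the combination, 7 (AICAR replicate 2, vehicle replicate 2) to 38 (GW1516 replicate 1) for the F test, 3 to 18 (GW1516 replicate 2) for the averaged AICAR effect and 14 to 36 (GW1516 replicate 1) for the averaged GW1516 effect. The interaction stayed at 0. With no trend, the calls of Foxo1, Acadl, Nr1d1 and Bhlhe40 were lost for the combination, and that of Bhlhe40 also with no filter. The F test calls of Foxo1 and Acadl and the averaged AICAR call of Foxo1 were likewise lost with no trend. The GW1516 call of Acadl was lost with no trend and with only the groups compared.

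Of 18 same-numbered pairs of arrays, 0 had deviations from the group means that correlated above 0.1 (range -0.11 to 0.07). No pairing by replicate number was seen, but this does not show how the pools were handled. With the replicate block the GW1516 difference of Nmnat2 had limma's adjusted p = 0.385 and the AICAR difference of Nadk 0.658. Precision is limited by how few arrays there were: the median SE of a difference between 2 groups was 0.19.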
